A study of Mus musculus with 24 samples.

Results

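Neurons grown in vitro from mouse embryonic stem cells labelled RESTko were compared with neurons grown from cells labelled RESThet. The comparison rests on 6 of the 24 arrays of the study, chosen by their titles: 3 arrays of terminal neurons (TN) labelled RESTko, a knock-out of REST, and 3 labelled RESThet, the heterozygous knock-out. Both groups are of the strain given as Black Agouti 129, and both were carried through the same published differentiation protocol, in which stem cells pass through a neuronal progenitor state. RESTko and RESTwt arrays of the earlier stages, ES cells and neuronal progenitors (NP), 3 arrays in each of 4 groups, share the array platform and enter the same model. The labels name no allele, clone or age of the cultures. They call the arrays biological replicates, lettered a to c, without saying that these came from separate cultures, so the p-values measure only the spread between these arrays. RESThet cells carry a REST deletion themselves, so the comparison holds no wildtype terminal neuron.

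REST is a zinc finger repressor that binds a DNA element named RE1 and keeps many neuronal genes silent in stem cells, glia and other non-neuronal cells. Its level normally drops as cells become neurons, and its targets include genes of synaptic vesicles, ion channels, transmitter receptors and neuropeptide secretion. The genes followed here are of other kinds as well: peptides that neurons release from dense-core granules, adhesion molecules that neurons display at contacts, the machinery of transmitters, and the genes of glia and of the extracellular matrix that such cultures also contain.

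The measurements are log2 signals of probe sets, 1 probe set standing for each gene, so a difference of 1 is a 2-fold change. Of all genes, 30% had a mean under 4.32 over these 6 arrays, and a signal under that level is called dim below. Differences are RESTko minus RESThet throughout, and a gene is called where the moderated test of limma gave an adjusted p under 0.05 over all 19938 genes. The probe set of Rest itself went against the labels at this stage. Its signal was 7.28, 7.38 and 7.46 in RESTko arrays a, b and c, against 7.02, 7.01 and 7.07 in RESThet arrays a, b and c (difference 0.34, SE 0.07, adjusted p = 0.0187), and the call ended without RESTko array b or c or RESThet array a or b (adjusted p up to 0.105). Where the deletion lies in the gene, and whether the probe set lies inside it, is not given in the sources used here, so the probe set does not check the labels, and RESTko and RESThet are used below as the names of the labels. Xist, the RNA that coats a silenced X chromosome, was at 8.88, 9.11 and 9.34 in RESTko arrays and at 4.44, 3.69 and 3.39 in RESThet arrays. Over 742 measured X-linked genes the median difference was -0.01, with 3 called higher and 6 lower, Xist included. Median signals of the 6 arrays ran from 5.41 to 5.49, and arrays of the same group correlated over genes at 0.995 to 0.996, against 0.993 to 0.995 between the groups.

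Both groups carried the neuronal identity their labels give. The summed linear signal of 24 autosomal pan-neuronal genes was 34042 to 37616 in RESTko arrays and 35746 to 38329 in RESThet arrays at TN, while at NP it was 11458 to 14649 in RESTko arrays and 5888 to 9113 in RESTwt arrays. Of genes known from glia, 27 of 30 astrocyte genes and 14 of 21 oligodendrocyte genes lay above the dim level. Of 28 basement membrane genes 1 was dim. The level was set so that 30% of all genes lie under it, so the oligodendrocyte count does not show that lineage. In such bulk samples, fewer cells of a type and less RNA per cell cannot be told apart.

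Of 19166 autosomal genes, 222 were called (1.16%), 68 higher (0.355%) and 154 lower (0.804%) in RESTko neurons. Only 8 of the higher and 14 of the lower ones differed 2-fold or more. For 3074 autosomal genes (16%) all arrays of 1 group lay on the same side of the other group, and 2272 had an unadjusted p under 0.05. Counts of unadjusted p under 0.05 in the lists below are to be read against those 2272 of 19166 genes. The median difference over all autosomal genes was -0.02, and the median SE of a difference was 0.10. The split between directions moved with the scaling: over all genes 71 were higher and 160 lower, but 101 and 108 after each chromosome was centred on its median in each array. Both counts depended on single arrays. Without RESTko array c, 40 were higher and 77 lower, without RESTko array a 59 and 86, and without RESThet array c 45 and 93. A fit of the 6 TN arrays alone called 16 higher and 34 lower. It estimates the spread from fewer arrays, and from TN only, while the SEs and p-values printed here pool it over all 18 arrays. Some genes spread more at TN. For Lama1 the SD was 0.68 in RESTko and 0.13 in RESThet arrays at TN, against 0.17 in RESTko arrays at NP and 0.12 at ES. Slitrk1 went the other way, with 0.06 in RESTko arrays at TN and 0.21 at NP. The fit of the TN arrays alone kept 28 of the 67 called genes named below. Of the 38 that were called on leaving out any 1 array, 12 were not called in that fit (adjusted p from 0.0501 to 0.131), namely Aqp8, Calb1, Cdh20, Ctxn2, Epas1, Lama1, Nts, Ogn, Pcdhb8, Prom1, Slc18a3 and Sprr1a. The shares of called genes given for the lists below describe lists that were chosen with earlier results known, and they are set beside the 1.16% of all autosomal genes without a test.

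**Figure D1:**
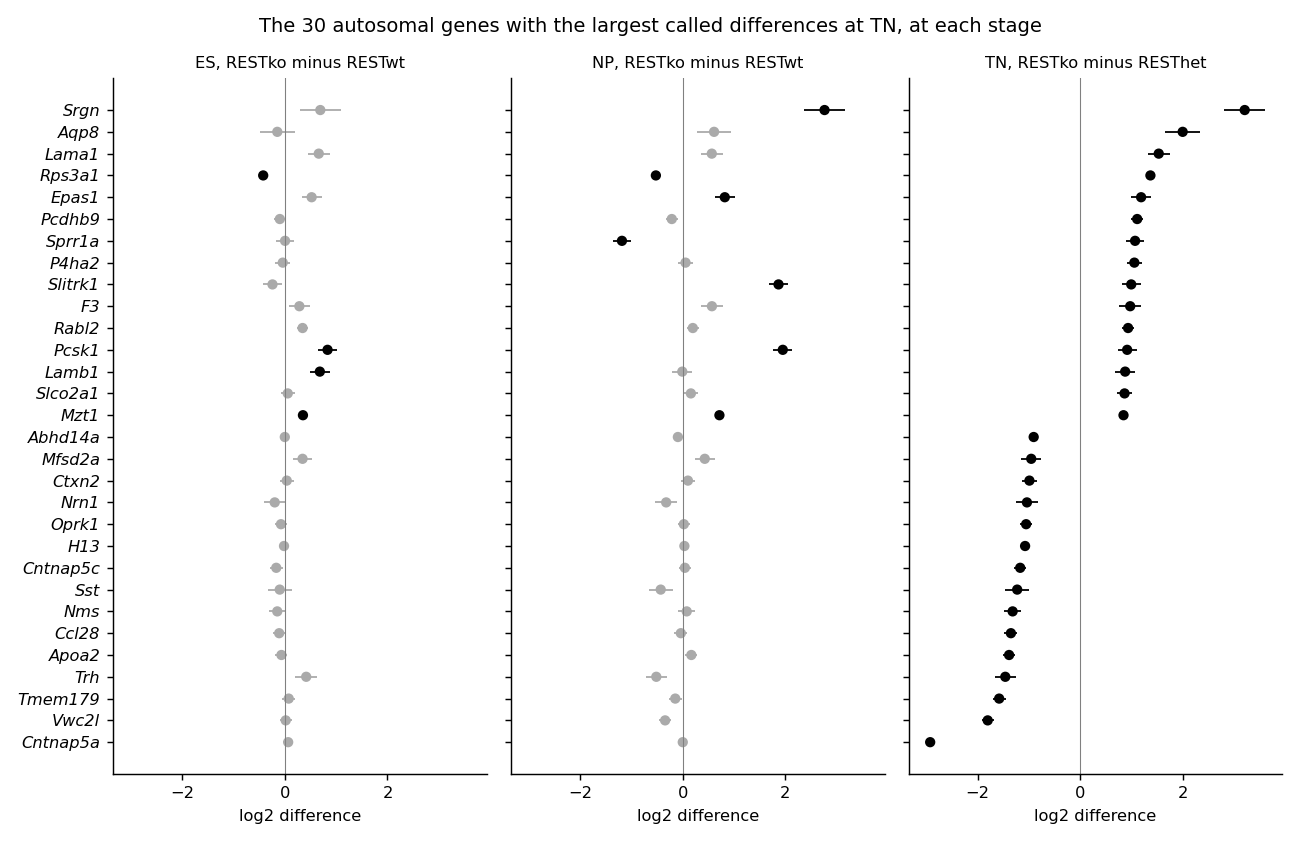
Log2 differences between genotypes (x axis) for the 30 autosomal genes that lead the called increases and decreases at TN, 15 of each (y axis), at ES, NP and TN. Points are limma estimates from 3 arrays in each group. Bars are 1 standard error of the fit, in which the spread of a gene is estimated over all 18 arrays. Black marks a called difference, grey one not called. Srgn stands at 3.20 and Cntnap5a at -2.93 at TN, and most of the lower genes lie near 0 at ES and NP, where the control is RESTwt and not RESThet.

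Neuropeptide genes held some of the largest decreases. Neuropeptides are cut from larger precursors in dense-core granules and mark particular kinds of neuron, and 5 of 50 measured autosomal precursor genes were lower in RESTko neurons while 1 was higher, 12% called against 1.16% of all autosomal genes. The lower ones were Trh, Nms, Sst, Tac1 and Penk, and the higher one was Nts. The other 44 were not called, and the median of all 50 was 0.04, against -0.02 over all autosomal genes.

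Sst encodes somatostatin, the inhibitory peptide of many interneurons. Its signal was 9.26, 8.51 and 8.36 in RESTko arrays and 10.13, 9.71 and 9.98 in RESThet arrays, with no overlap. The difference was -1.23 (SE 0.24, 2.35-fold lower, adjusted p = 0.0124). Trh, the precursor of thyrotropin-releasing hormone, was at 4.54, 4.76 and 4.84 in RESTko arrays and 6.61, 5.81 and 6.11 in RESThet arrays. All RESTko arrays were close to the dim level, and the gap to the lowest RESThet array was 0.96 (-1.46, SE 0.21, 2.76-fold lower, adjusted p = 0.000976). Nms, which encodes neuromedin S, was at 4.90, 4.78 and 5.00 in RESTko arrays and 5.84, 6.45 and 6.35 in RESThet arrays (-1.32, SE 0.16, adjusted p = 0.000226).

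Tac1 encodes the precursor of substance P and neurokinin A. It was at 5.45, 6.49 and 5.09 in RESTko arrays and 6.41, 6.98 and 7.01 in RESThet arrays (-1.12, SE 0.23, adjusted p = 0.0227). RESTko array b lay above RESThet array a, so the groups overlapped. Penk, the precursor of the enkephalins, was at 7.85, 7.67 and 7.90 in RESTko arrays and 8.64, 8.43 and 8.41 in RESThet arrays (-0.68, SE 0.14, adjusted p = 0.0177). It was lower at NP as well (-0.54 against RESTwt, adjusted p = 0.0205), where the RESTko mean of 3.99 was dim. Nts, the precursor of neurotensin, went the other way, at 5.83, 5.69 and 5.47 in RESTko arrays and 4.87, 5.22 and 4.92 in RESThet arrays (0.66, SE 0.11, adjusted p = 0.00479). Penk and Nts were named after their values were seen, to complete the set of called precursors. Among precursors that were not called, named on the same basis, the largest differences were in Npy, the gene of neuropeptide Y (-0.49, adjusted p = 0.104), and in Grp, the gene of gastrin-releasing peptide (0.57, adjusted p = 0.0761).

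Single arrays carried part of these calls. The call of Sst ended without RESTko array b or c or RESThet array a or c (adjusted p up to 0.0783), that of Tac1 without RESTko array a or c or RESThet array b or c (up to 0.114), and that of Penk without RESTko array a or b or RESThet array a (up to 0.0756). Trh, Nms and Nts were called on leaving out any 1 of the 6 arrays (adjusted p up to 0.00784, 0.00256 and 0.0334). In the 6 TN arrays alone Trh and Nms were called and Nts was not (adjusted p = 0.0301, 0.0199 and 0.112).

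The promoters of the called peptide genes and of the processing enzyme Pcsk1 are of interest because several peptide genes are textbook targets of the cyclic AMP pathway through the element TGACGTCA, or its core TGACG. The bases just before the start were taken from RefSeq on GRCm38.p6, 250 for each gene, for 7 of the 8 called genes of precursors and processing. TGACGTCA is its own reverse complement and TGACG was searched on both strands, where its other strand reads CGTCA. Each TGACGTCA also holds TGACG on both strands. In the lines below every match is in capitals, and the sequences run 5′ to 3′ on the strand of the gene.
Sst, chr16:23890845-23891094, minus strand: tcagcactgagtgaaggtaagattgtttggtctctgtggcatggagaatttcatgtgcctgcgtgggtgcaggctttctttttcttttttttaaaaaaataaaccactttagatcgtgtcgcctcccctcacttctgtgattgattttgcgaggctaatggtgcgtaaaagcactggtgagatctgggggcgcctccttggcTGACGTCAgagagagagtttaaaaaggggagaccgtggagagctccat
Trh, chr6:92244651-92244900, minus strand: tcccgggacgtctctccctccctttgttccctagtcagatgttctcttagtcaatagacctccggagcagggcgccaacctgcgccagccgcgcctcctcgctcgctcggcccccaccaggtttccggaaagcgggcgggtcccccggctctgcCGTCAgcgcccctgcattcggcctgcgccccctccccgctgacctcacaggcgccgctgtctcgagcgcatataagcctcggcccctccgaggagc
Tac1, chr6:7554811-7555060, plus strand: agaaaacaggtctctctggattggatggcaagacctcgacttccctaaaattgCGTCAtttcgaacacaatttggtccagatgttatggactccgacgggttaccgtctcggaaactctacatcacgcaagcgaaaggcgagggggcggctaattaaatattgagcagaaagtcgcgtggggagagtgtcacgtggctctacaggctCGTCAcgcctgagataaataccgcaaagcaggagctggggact
Pcsk1, chr13:75089607-75089856, plus strand: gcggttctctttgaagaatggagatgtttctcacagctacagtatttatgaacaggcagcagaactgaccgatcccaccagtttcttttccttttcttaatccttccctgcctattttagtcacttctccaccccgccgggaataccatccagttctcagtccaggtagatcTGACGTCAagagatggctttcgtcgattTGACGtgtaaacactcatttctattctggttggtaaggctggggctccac

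The 8-base element stood once before Sst, ending 41 bases from the start, and once before Pcsk1, ending 71 bases from it. Its core stood once before Trh and Nts and on 2 separate sites before Tac1, while Nms and Pam had no match in these bases. Among 32851 promoter stretches of the same table, 1.55% held TGACGTCA and 17.8% held TGACG. Sst, with the element, was lower in RESTko neurons and Pcsk1, also with it, was higher. These matches describe letters and were not tested for binding or use.

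Of 9 autosomal genes for the enzymes and partners that process peptide precursors, 1 rose and 1 fell, 22.2% called against 1.16% of all autosomal genes, with a median of 0.04. Pcsk1, the prohormone convertase that makes the first cuts, was at 7.53, 7.02 and 6.71 in RESTko arrays and 6.17, 6.26 and 6.09 in RESThet arrays. The RESTko arrays spread over 0.83 but all lay above every RESThet array (0.91, SE 0.18, 1.88-fold, adjusted p = 0.0177), and the call ended without RESTko array a or RESThet array a or c (up to 0.0866). Pcsk1 was higher at NP too, by 1.95 against RESTwt (adjusted p = 2.65e-06), and there the difference was larger than at TN (-1.04 for TN minus NP, adjusted p = 0.0318). Pam, which amidates the ends of many peptides, was lower by a small amount, with 8.55, 8.56 and 8.34 in RESTko arrays and 8.81, 8.83 and 8.84 in RESThet arrays (-0.34, adjusted p = 0.0402), and the call was lost whichever 1 of the 6 arrays was left out (up to 0.184).

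Of 40 peptide receptor genes 2 rose and 1 fell, 7.5% called, with a median of -0.02. Oprk1, the kappa opioid receptor, was at 4.52, 4.60 and 4.55 in RESTko arrays and 5.74, 5.56 and 5.55 in RESThet arrays. The 3 RESTko arrays lay within 0.07 of each other, and the gap to the lowest RESThet array was 0.95 (-1.06, SE 0.12, 2.08-fold lower, adjusted p = 0.000144), and the call held on leaving out any 1 array (up to 0.00136). Nmur2, a receptor for the neuromedins U and S, was higher at 4.77, 4.59 and 4.72 in RESTko arrays and 3.98, 4.32 and 3.90 in RESThet arrays (0.63, SE 0.11, adjusted p = 0.0092). Trhr, the receptor for thyrotropin-releasing hormone, was higher at 4.83, 4.89 and 4.52 in RESTko arrays and 4.30, 4.26 and 4.26 in RESThet arrays (0.47, SE 0.09, adjusted p = 0.0146). For both, the precursor genes Nms and Trh were lower, but the RESThet means of both receptors were dim (4.07 for Nmur2 and 4.27 for Trhr). Their calls ended without RESThet array c (Nmur2, 0.0546) and without RESTko array a or b or RESThet array c (Trhr, up to 0.0717).

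**Figure D2:**
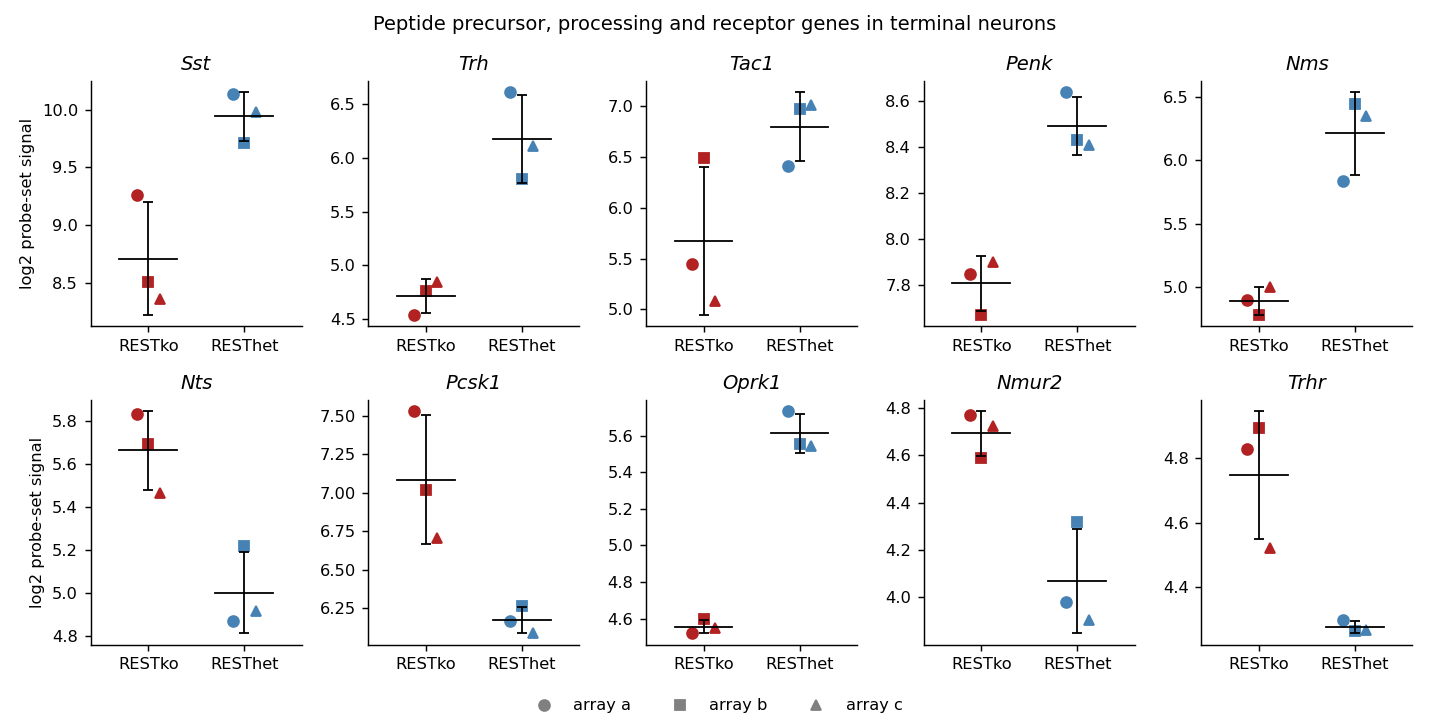
Log2 probe-set signals (y axis, a scale of its own in each panel, not starting at 0) of 10 called neuropeptide precursor, processing and receptor genes in RESTko and RESThet terminal neurons (x axis). Points are single arrays, horizontal lines the means and bars 1 SD (n = 3 each). The groups do not overlap in 9 panels, and Tac1 is the panel in which RESTko array b (6.49) lies above RESThet array a (6.41).

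Adhesion genes held the sharpest decrease of all. Cntnap5a, a member of the neurexin superfamily of contactin-associated proteins on neuronal membranes, was at 5.76, 5.81 and 5.82 in RESTko arrays and 8.95, 8.70 and 8.53 in RESThet arrays. The RESTko arrays lay within 0.06 of each other, and the gap to the lowest RESThet array was 2.71 (-2.93, SE 0.09, 7.60-fold lower, adjusted p = 1.13e-12). At ES and NP the gene was dim in both genotypes, with a mean of 3.10 in RESTko and 3.10 in RESTwt progenitors, and the effects of genotype at TN and NP differed (-2.93 for TN minus NP, adjusted p = 4.09e-10). Its relative Cntnap5c was lower as well, at 5.30, 5.29 and 5.28 in RESTko arrays and 6.74, 6.43 and 6.23 in RESThet arrays (-1.17, SE 0.12, adjusted p = 3.84e-05). A second probe set of Cntnap5c gave -1.44. Cntnap5b, the remaining relative, named after its values were seen, was at 6.91, 7.27 and 6.96 in RESTko arrays and 7.06, 7.19 and 7.07 in RESThet arrays (-0.06, adjusted p = 0.912).

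Of all 13 contactin and Cntnap genes, Cntnap5a and Cntnap5c fell and none rose, 15.4% called, with a median of -0.16. The median was -0.05 without RESThet array b and -0.09 without RESTko array c. Both calls held on leaving out any 1 array and in the TN arrays alone. The 3 Cntnap5 genes are close in sequence, and how far their probe sets share signal was not tested.

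The clustered protocadherins give neurons individual surface codes, each neuron using a few members of a row of similar genes. Of 58 listed members only the 22 genes of the beta cluster were measured under a single symbol, and of these 1 rose and 5 fell in RESTko neurons, 27.3% called, with a median of -0.20. Pcdhb9 was at 7.01, 6.83 and 6.64 in RESTko arrays and 5.49, 5.98 and 5.69 in RESThet arrays (1.11, SE 0.12, 2.15-fold higher, adjusted p = 4.67e-05). Its neighbours went the other way. Pcdhb11 was at 7.78, 7.85 and 7.78 in RESTko arrays and 8.78, 8.76 and 8.55 in RESThet arrays (-0.89, SE 0.13, adjusted p = 0.000925). Pcdhb13 (-0.76, adjusted p = 0.00412) and Pcdhb6 (-0.73, adjusted p = 0.000909) also fell, as did Pcdhb8 (-0.73) and Pcdhb12 (-0.68), named after their values were seen.

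The called genes all lay between Pcdhb6 and Pcdhb13. From Pcdhb14 to Pcdhb22 the differences ran from -0.14 to 0.09, and none was called. The groups did not overlap for 13 of the 22 genes, against 16% of autosomal genes. The counts of 1 higher and 5 lower held on leaving out each of the 6 arrays in turn, and were 1 and 4 in the TN arrays alone. At NP, Pcdhb11 and Pcdhb6 were lower too (-0.57 and -0.44 against RESTwt, adjusted p = 0.00815 and 0.0126), while Pcdhb9 was at -0.21 (adjusted p = 0.366) and dim in both genotypes. The beta genes are near-identical over long stretches, so part of a signal may come from a relative, and this was not tested.

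**Figure D3:**
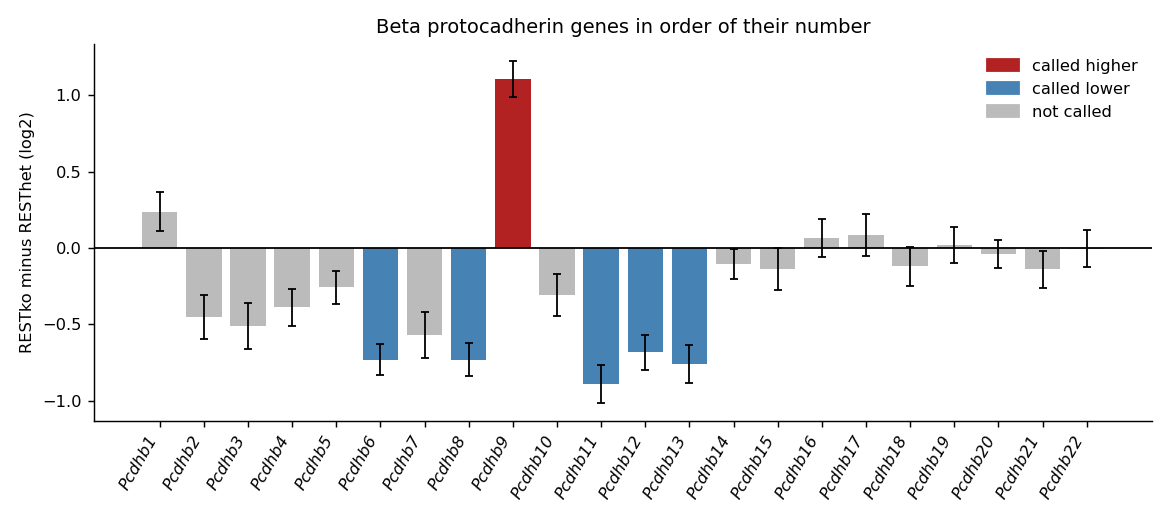
Log2 difference at TN, RESTko minus RESThet (y axis), for the 22 measured beta protocadherin genes in the order of their numbers (x axis). Bars are limma estimates with 1 standard error, red marks a called increase, blue a called decrease and grey genes not called. Pcdhb9 stands at 1.11 among neighbours at -0.57 to -0.89, with Pcdhb10 at -0.31, and the genes from Pcdhb14 on lie near 0.

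Of 31 cadherins and delta-protocadherins, Cdh20 fell (-0.61, SE 0.11, adjusted p = 0.0076) and none rose (3.23% called, median -0.04). Its signal was 4.54, 4.39 and 4.68 in RESTko arrays and 5.03, 5.07 and 5.32 in RESThet arrays. Of 46 synaptic and immunoglobulin adhesion genes, Slitrk1 rose and none fell (2.17% called against 1.16% of all autosomal genes, median -0.07). Slitrk1 is a transmembrane protein that shapes neurites and synapses, and was at 9.56, 9.53 and 9.64 in RESTko arrays and 8.49, 8.68 and 8.59 in RESThet arrays (0.99, SE 0.18, 1.99-fold higher, adjusted p = 0.0107). The gap between the groups was 0.85, with each group within 0.18, but the call ended without RESTko array c (0.0542). It was higher at NP too, by 1.87 (adjusted p = 4.50e-06). Most other genes of this list, among them the neurexins and neuroligins, lay just below 0: 39 of 46 differences were negative, against 10618 of 19166 autosomal genes.

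Called genes made up 7.14% of the glutamate list and 5.13% of the cholinergic and monoamine list, against 1.16% of all autosomal genes. In the GABA and glycine list the share was 0%. The named protocol is known for neurons that use glutamate, and Slc17a6, the vesicular glutamate transporter VGLUT2, was at 9.57, 10.07 and 9.66 in RESTko arrays and 10.16, 10.78 and 10.85 in RESThet arrays. It was called lower (-0.83, SE 0.17, 1.77-fold, adjusted p = 0.0249), although the gap between RESTko array b and RESThet array a was 0.08. Cacng3, an auxiliary subunit of AMPA receptors, was at 7.16, 7.03 and 6.37 in RESTko arrays and 7.30, 7.70 and 7.75 in RESThet arrays (-0.73, adjusted p = 0.045). These were the 2 called genes of 28 in the glutamate list, 7.14%, with 0 higher and a median of -0.11. The call of Slc17a6 ended without RESTko array a or c or RESThet array b or c (up to 0.127), and that of Cacng3 without RESTko array b or c or RESThet array b or c (up to 0.177).

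Of 22 autosomal GABA and glycine genes 0 were called by limma, and 6 had an unadjusted p under 0.05, against 2272 of 19166 autosomal genes. Differences were below 0 for 18 of the 22 (median -0.11), against 10618 of 19166. The largest were in the GABA receptor subunits Gabra4, at 7.24, 6.95 and 7.07 in RESTko arrays and 7.44, 7.47 and 7.38 in RESThet arrays (-0.34, adjusted p = 0.0914), and Gabrb1 (-0.33, adjusted p = 0.115). Gad1, the enzyme that makes GABA, named after its values were seen, was at 9.75, 9.42 and 9.79 in RESTko arrays and 9.81, 9.56 and 9.71 in RESThet arrays (-0.04, adjusted p = 0.965).

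Of 39 cholinergic and monoamine genes, Slc18a3 rose and Htr1a fell (median -0.01). Slc18a3 loads acetylcholine into vesicles and is a known RE1 gene. It was at 7.39, 7.59 and 7.28 in RESTko arrays and 6.63, 6.86 and 6.84 in RESThet arrays (0.65, SE 0.11, 1.56-fold, adjusted p = 0.00477), and the call held on leaving out any 1 array but not in the TN arrays alone (adjusted p = 0.0662). Chat, the enzyme that makes acetylcholine, named after its values were seen, was dim, with 3.52, 3.48 and 3.80 in RESTko arrays and 3.64, 3.67 and 3.54 in RESThet arrays. Htr1a, a serotonin receptor, was at 5.87, 5.72 and 5.80 in RESTko arrays and 5.97, 6.43 and 6.27 in RESThet arrays (-0.42, adjusted p = 0.0401), and its call ended without any 1 of the RESTko arrays or RESThet array b or c (up to 0.14).

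Of 42 transcription factors that mark neuron subtypes 0 were called by limma, and 7 had an unadjusted p under 0.05 (median 0.04). The largest differences were in Lhx5 (-0.61, adjusted p = 0.26) and Pax2 (-0.34, adjusted p = 0.401), factors of spinal and hindbrain interneurons.

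Of genes that define neurons at large 0% were called at this stage, and of genes known to carry the RE1 element 4%. The share over all autosomal genes was 1.16%, so 0 calls among 24 genes says little. Of 24 autosomal pan-neuronal genes 0 were called by limma and 2 had an unadjusted p under 0.05, with a median of -0.04. Stmn2, a tubulin-binding protein of growing axons, had the largest difference, at 11.44, 11.30 and 11.15 in RESTko arrays and 11.75, 11.84 and 11.90 in RESThet arrays (-0.53, adjusted p = 0.104). Nefh, the heavy neurofilament subunit, was at 8.27, 7.85 and 7.76 in RESTko arrays and 8.05, 8.56 and 8.48 in RESThet arrays (-0.41, adjusted p = 0.194). At NP both were higher in RESTko than in RESTwt cells, Stmn2 by 0.51 (adjusted p = 0.0401) and Nefh by 1.17 (adjusted p = 2.27e-05), and the effects at the stages differed (TN minus NP -1.04 and -1.58, adjusted p = 0.00803 and 9.30e-05).

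The list of RE1 targets, drawn from general knowledge, held 50 autosomal genes, of which Slc18a3 rose and Calb1 fell at TN, with a median of 0.04. The median of the same genes was 1.10 at NP and 0.47 at ES, where the control is RESTwt. Calb1, the calcium buffer calbindin, was at 4.15, 4.35 and 4.18 in RESTko arrays and 4.71, 4.95 and 4.67 in RESThet arrays (-0.55, SE 0.09, adjusted p = 0.00567). At NP it was at 0.43 (adjusted p = 0.00809; -0.97 for TN minus NP, adjusted p = 0.000369), but its means there, 3.87 in RESTko and 3.45 in RESTwt progenitors, were dim, as was that of RESTko neurons (4.23), which limits what these differences can show.

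Of 83 different genes in 4 glial lists, 5 were called lower in RESTko neurons and 0 higher. Over all autosomal genes 0.804% were called lower and 0.355% higher. Astrocytes and the radial glia from which neurons arise share many genes, and of 23 autosomal genes of radial glia and progenitors 2 fell and 0 rose (median -0.23), while of 30 astrocyte genes 2 fell and 0 rose (median -0.22). The shares called were 8.7% and 6.67%, against 1.16% of all autosomal genes. Differences were below 0 for 18 of the 23 and 26 of the 30, against 10618 of 19166 autosomal genes. Tnc, the matrix glycoprotein tenascin-C of radial glia, was at 7.00, 7.72 and 7.52 in RESTko arrays and 8.20, 8.01 and 8.31 in RESThet arrays (-0.76, SE 0.14, 1.69-fold lower, adjusted p = 0.00997). Prom1, a membrane protein of neural stem cells, was at 4.57, 4.95 and 4.59 in RESTko arrays and 5.58, 5.19 and 5.55 in RESThet arrays (-0.73, SE 0.13, adjusted p = 0.00596). In both genes RESTko array a was farthest from the RESThet arrays and RESTko array b nearest.

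Gja1, the connexin that couples astrocytes, was at 6.98, 7.90 and 7.53 in RESTko arrays and 8.40, 8.05 and 8.39 in RESThet arrays (-0.81, SE 0.19, adjusted p = 0.0419). Acsbg1, a fatty acid ligase of astrocytes, was at 6.73, 6.96 and 7.01 in RESTko arrays and 7.64, 7.06 and 8.00 in RESThet arrays (-0.67, adjusted p = 0.0376). Classic markers moved less, among them Gfap at 0.05 (adjusted p = 0.974) and Aqp4 at -0.35 (adjusted p = 0.392), both named after their values were seen. The summed signal of the 30 astrocyte genes was 8763 to 11013 in RESTko arrays and 10863 to 13449 in RESThet arrays, which overlap, and that of the 23 radial glia genes was 4141 to 5688 in RESTko arrays and 5705 to 7274 in RESThet arrays, which do not.

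Of 21 oligodendrocyte genes, Ugt8a, an enzyme of myelin lipids, fell (-0.45, adjusted p = 0.0494), and 0 rose (4.76% called, median -0.08). It was at 5.26, 5.25 and 5.15 in RESTko arrays and 5.75, 5.55 and 5.72 in RESThet arrays. Olig2 and Olig1, transcription factors of the lineage named after their values were seen, had larger differences that were not called. Olig2 was at 5.55, 6.53 and 6.53 in RESTko arrays and 6.91, 6.88 and 7.95 in RESThet arrays (-1.04, SE 0.26, adjusted p = 0.064), and Olig1 was at -0.91 (adjusted p = 0.0746). Of 13 Schwann cell and neural crest genes 0 were called by limma and 1 had an unadjusted p under 0.05 (median -0.08), with Egr2 at 0.37 (adjusted p = 0.235) and Fabp7 at -0.36 (adjusted p = 0.519) the largest. Summed signals were 1148 to 1352 in RESTko arrays and 1435 to 1919 in RESThet arrays for oligodendrocyte genes, and 2221 to 2831 in RESTko arrays and 2839 to 3554 in RESThet arrays for the Schwann and crest list. For 7 of the 21 oligodendrocyte genes, among them the myelin genes Mag and Mobp, the signal was dim. Of the called glial genes, Gja1 and Ugt8a had higher means in RESTko ES cells (10.57 and 7.05) than in RESTko neurons (7.47 and 5.22). Prom1 had a higher mean in RESTko progenitors (7.38) than in RESTko neurons (4.70). The calls of these genes therefore do not by themselves mark glia. Tnc and Acsbg1 were highest at TN.

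Most glial calls ended with single arrays. Without RESThet array c, 0 of 30 astrocyte genes were called and the median was -0.10, and without RESTko array a 0 were called with a median of -0.12. Without RESTko array c 0 were called as well, with a median of -0.22. Gja1 lost its call without RESTko array a or c or RESThet array a or c (adjusted p up to 0.17), and Acsbg1 and Ugt8a without any 1 of the RESTko arrays or RESThet array a or c (up to 0.151 and 0.175). Tnc lost it without RESThet array c (0.0546), and Prom1 kept it on leaving out any 1 array. In the TN arrays alone 0 genes were called in any of the 4 glial lists, with an adjusted p of 0.112 for Prom1. The median of the radial glia list was -0.09 without RESTko array a, and without RESThet array c the medians of the oligodendrocyte and the Schwann and crest lists were both -0.02.

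Called matrix genes included 2 laminin chains of basement membranes. Basement membranes are sheets of laminins, type IV collagens, nidogens and perlecan that surround vessels and cover the brain surface, and of 28 autosomal genes 2 rose and 1 fell (10.7% called, median 0.14). Lama1, the laminin chain of early basement membranes, was at 7.71, 9.06 and 8.22 in RESTko arrays and 6.94, 6.68 and 6.79 in RESThet arrays. All RESTko arrays lay above all RESThet arrays, and RESTko array b was the highest (1.53, SE 0.21, 2.88-fold higher, adjusted p = 0.000895). Lamb1, a chain that pairs with it, was at 8.67, 9.66 and 9.13 in RESTko arrays and 8.39, 8.57 and 7.89 in RESThet arrays (0.87, SE 0.20, adjusted p = 0.0395), with RESTko array b again the highest. Col4a1 (0.74, adjusted p = 0.0597), Lamc1 (0.61, adjusted p = 0.0952) and Col4a2 (0.59, adjusted p = 0.0848), further structural chains named after their values were seen, were not called. In each the groups did not overlap, which was so for 16% of all autosomal genes. Smoc1, a calcium-binding matrix protein, fell, with 7.17, 7.34 and 7.34 in RESTko arrays and 7.64, 7.66 and 7.90 in RESThet arrays (-0.45, adjusted p = 0.0316).

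The calls of Lamb1 and Smoc1 ended without single arrays: Lamb1 without RESTko array b or c or RESThet array a or c (up to 0.182), Smoc1 without any 1 of the RESTko arrays or RESThet array c (up to 0.149). Lama1 kept its call on leaving out any 1 array (up to 0.00585), with a difference of 1.16 without RESTko array b. In the TN arrays alone its adjusted p was 0.108, and 0 of the 28 genes were called. The summed signal of the 28 genes was 5586 to 7336 in RESTko arrays and 4706 to 5950 in RESThet arrays, which overlap. With each chromosome centred, 5 of the 28 were called higher and 0 lower.

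Of 28 fibrillar and other collagens 0 were called by limma and 7 had an unadjusted p under 0.05, against 2272 of 19166 autosomal genes. Differences were above 0 for 24 of the 28 (median 0.14), against 8548 of 19166. The median was 0.06 without RESTko array c and 0.08 without RESThet array b. In 8 of the 28 the groups did not overlap, against 16% of all autosomal genes. The largest differences pointed down, in Col14a1, at 6.18, 5.91 and 6.31 in RESTko arrays and 6.59, 7.52 and 6.94 in RESThet arrays (-0.88, adjusted p = 0.0715), and in Col1a2, at 7.68, 8.00 and 8.42 in RESTko arrays and 8.74, 8.86 and 8.77 in RESThet arrays (-0.76, adjusted p = 0.0525). Col1a1, whose product pairs with that of Col1a2 in type I collagen, named after its values were seen, was at 0.13 (adjusted p = 0.895).

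Srgn had the largest increase of any autosomal gene. It encodes serglycin, a proteoglycan of secretory granules, and was at 8.38, 9.52 and 8.73 in RESTko arrays and 5.88, 5.61 and 5.53 in RESThet arrays. The lowest RESTko array lay 2.50 above the highest RESThet array (3.20, SE 0.40, 9.19-fold higher, adjusted p = 0.000335). It was higher at NP as well, by 2.77 (adjusted p = 0.00029), and the effects at the stages did not differ beyond their error (0.44, SE 0.57, adjusted p = 0.77).

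Among all 48 proteoglycans and matrix glycoproteins 3 rose and 2 fell (10.4% called, median 0.01). Ogn, the small leucine-rich proteoglycan osteoglycin, was at 5.85, 5.82 and 5.97 in RESTko arrays and 5.30, 5.13 and 4.81 in RESThet arrays (0.80, SE 0.11, adjusted p = 0.000895). Ccn1, a matrix protein that is also an immediate-early gene, was at 6.96, 7.03 and 6.78 in RESTko arrays and 6.54, 6.12 and 5.70 in RESThet arrays (0.80, adjusted p = 0.0176). Tnr, tenascin-R of the nets around neurons, named after its values were seen, fell, with 6.56, 6.90 and 6.61 in RESTko arrays and 7.39, 7.34 and 7.43 in RESThet arrays (-0.70, SE 0.11, adjusted p = 0.00357). The other one that fell was Tnc, described with the glial genes. At NP Tnr was at 0.41 (adjusted p = 0.0302), with dim means of 4.29 in RESTko and 3.87 in RESTwt progenitors. Its value for TN minus NP was -1.12 (adjusted p = 0.000574).

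Of 33 matrix proteases and crosslinkers 1 rose and 1 fell (6.06% called against 1.16% of all autosomal genes, median 0.05). P4ha2, a prolyl hydroxylase that stabilises collagen, was at 6.93, 7.59 and 7.28 in RESTko arrays and 6.18, 6.34 and 6.14 in RESThet arrays (1.05, SE 0.14, 2.07-fold higher, adjusted p = 0.000742). Timp4, an inhibitor of metalloproteases, was at 5.85, 6.23 and 6.01 in RESTko arrays and 6.60, 6.39 and 6.98 in RESThet arrays (-0.63, SE 0.13, adjusted p = 0.0168). The calls of Srgn, Ogn, Tnr and P4ha2 held on leaving out any 1 array, and in the TN arrays alone that of Ogn was lost (adjusted p = 0.0545). That of Ccn1 ended without RESTko array a or b or RESThet array c (up to 0.078), and that of Timp4 without RESTko array a or c or RESThet array c (up to 0.0898).

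**Figure D4:**
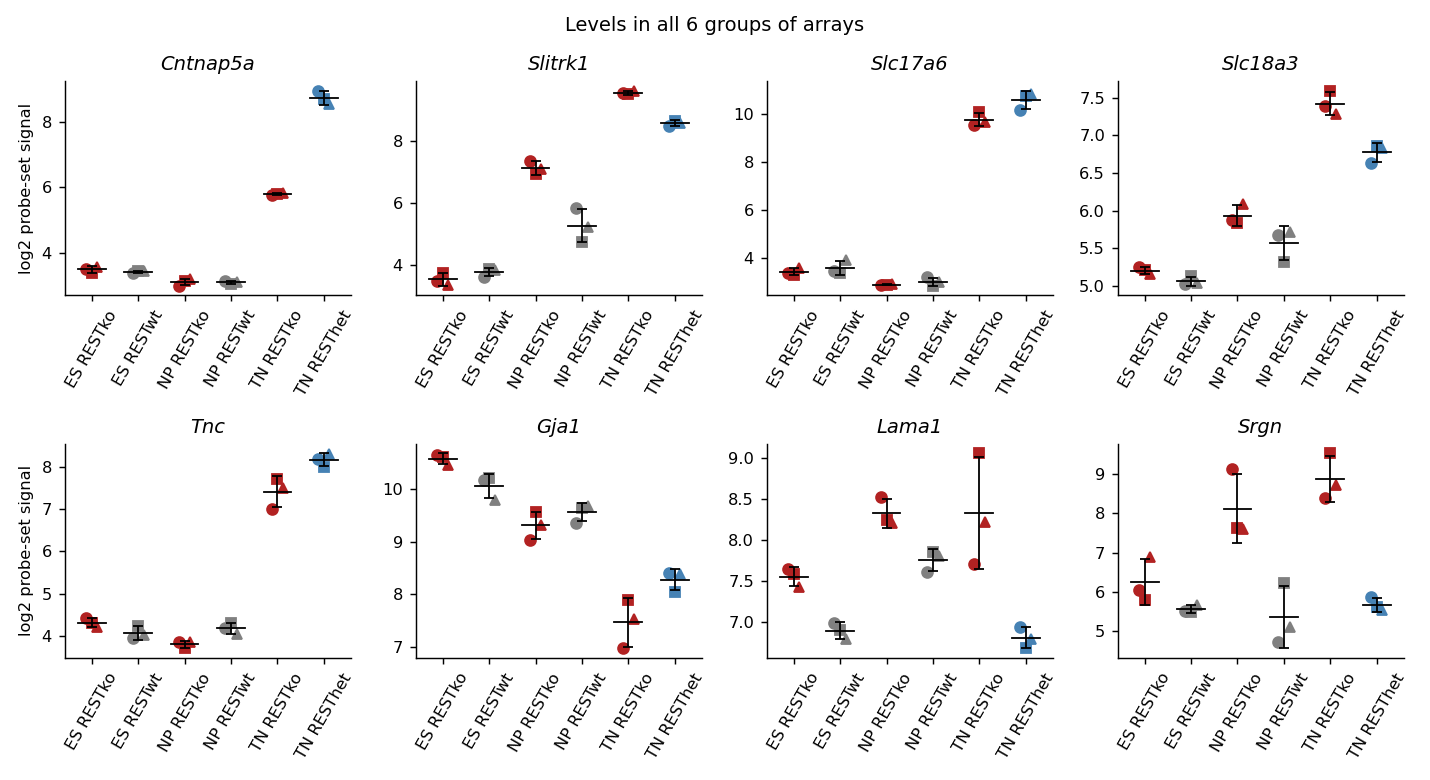
Log2 probe-set signals (y axis, a scale of its own in each panel, not starting at 0) of 8 called genes in the 6 groups of arrays (x axis, in the order ES, NP and TN). Points are single arrays with circles for a, squares for b and triangles for c, horizontal lines the means and bars 1 SD (n = 3 each). Cntnap5a and Slc17a6 come on at TN, Slitrk1 is higher in RESTko cells at NP and TN, Srgn is high in RESTko cells at both, and RESTko array b is the highest of its group in the panels of Slc17a6, Slc18a3, Tnc, Gja1, Lama1 and Srgn at TN.

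Among markers of other cell types, 7.41% of the endoderm and epithelial list, 4.76% of the vascular list and 4.35% of the pluripotency list were called. The share over all autosomal genes was 1.16%. Of 27 endoderm and epithelial markers Dab2 rose and Apoa2 fell (median 0.11). Dab2, an endocytic adaptor abundant in visceral endoderm, was at 6.63, 7.46 and 7.13 in RESTko arrays and 6.06, 6.64 and 5.97 in RESThet arrays (0.85, adjusted p = 0.0297). A second and dim probe set of Dab2 gave -0.11, and the call ended without RESTko array b or c or RESThet array a or c (up to 0.14). Apoa2, an apolipoprotein of liver and yolk sac, was at 5.45, 5.27 and 5.42 in RESTko arrays and 6.99, 6.64 and 6.68 in RESThet arrays (-1.39, SE 0.12, 2.62-fold lower, adjusted p = 2.54e-06). The summed signal of the endoderm list was 945 to 1169 in RESTko arrays and 870 to 1051 in RESThet arrays. Of its 27 markers 8 were dim, among them the defining markers Sox17, Afp and Alb, against 30% of all genes.

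Of 21 vascular markers Epas1, the oxygen-regulated transcription factor of endothelium, rose (median 0.09), with 6.05, 6.94 and 6.20 in RESTko arrays and 5.22, 4.94 and 5.48 in RESThet arrays (1.18, SE 0.19, 2.27-fold, adjusted p = 0.00412). The summed vascular signal was 656 to 779 in RESTko arrays and 571 to 618 in RESThet arrays. Of the 21 markers 7 were dim, among them Tek, Tie1 and Emcn, against 30% of all genes. Smooth muscle and mesoderm markers had 0 calls by limma among 25, and 4 with an unadjusted p under 0.05 (median 0.10), with Acta2, the smooth muscle actin, at 0.70 (adjusted p = 0.352) and Prrx1 at 0.54 (adjusted p = 0.36), and a summed signal of 876 to 1010 in RESTko arrays and 818 to 872 in RESThet arrays. The vascular and smooth muscle sums were higher in RESTko arrays and did not overlap between the groups, while those of the basement membrane genes overlapped. Whether these sums go together array by array was not tested, nor was any part of such cells in the basement membrane result.

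Macrophage and blood markers had 0 calls by limma among 18 and 0 with an unadjusted p under 0.05 (median -0.03), with Lyz2 at 0.18 and Klf1 at -0.15 the largest. Of the 18, 13 were dim, among them Csf1r, Ptprc and Itgam. The summed signal of the list was 339 to 360 in RESTko arrays and 341 to 368 in RESThet arrays. Srgn is also abundant in blood cells, and a part of such cells in its increase was not tested. Choroid plexus and ependymal markers had 0 calls by limma among 17 and 1 with an unadjusted p under 0.05 (median 0.07), with Ttr at 0.59 (adjusted p = 0.195) and Ccdc153 at 0.23 (adjusted p = 0.454). Of 23 pluripotency markers, Klf5 rose (0.60, adjusted p = 0.0214; median 0.05), with 6.91, 7.51 and 7.35 in RESTko arrays and 6.79, 6.63 and 6.55 in RESThet arrays, and its call ended without RESTko array b or c or RESThet array b or c (up to 0.105).

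Of 31 cell cycle genes 2 fell and 0 rose (6.45% called against 1.16% of all autosomal genes, median -0.16). Ccnd1, the cyclin of the step into the cycle, was at 6.12, 6.74 and 6.26 in RESTko arrays and 7.04, 6.72 and 7.18 in RESThet arrays (-0.61, adjusted p = 0.0254), and Foxm1, a transcription factor of dividing cells, at 5.31, 5.52 and 5.27 in RESTko arrays and 6.01, 5.70 and 5.83 in RESThet arrays (-0.48, adjusted p = 0.0335). Both calls ended without RESTko array a or c or RESThet array a or c (up to 0.128 and 0.143), and the median was -0.02 without RESThet array a and -0.04 without RESTko array a. Immediate-early genes, which neurons switch on within minutes of activity, had a median of 0.28 over 27 genes. Differences were above 0 for 22 of them, against 8548 of 19166 autosomal genes. Of the 27, Ccn1 was called (3.7% against 1.16% of all autosomal genes). Fos (0.67, adjusted p = 0.394) and Npas4 (0.67, adjusted p = 0.513), named after their values were seen, were highest in array a of each group. Without RESTko array a the median was 0.10. Of 27 ER stress and hypoxia genes 0 were called by limma and 4 had an unadjusted p under 0.05 (median 0.08), with Atf4 at 0.27 (adjusted p = 0.212) and Ddit3 at 0.27 (adjusted p = 0.296).

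**Figure D5:**
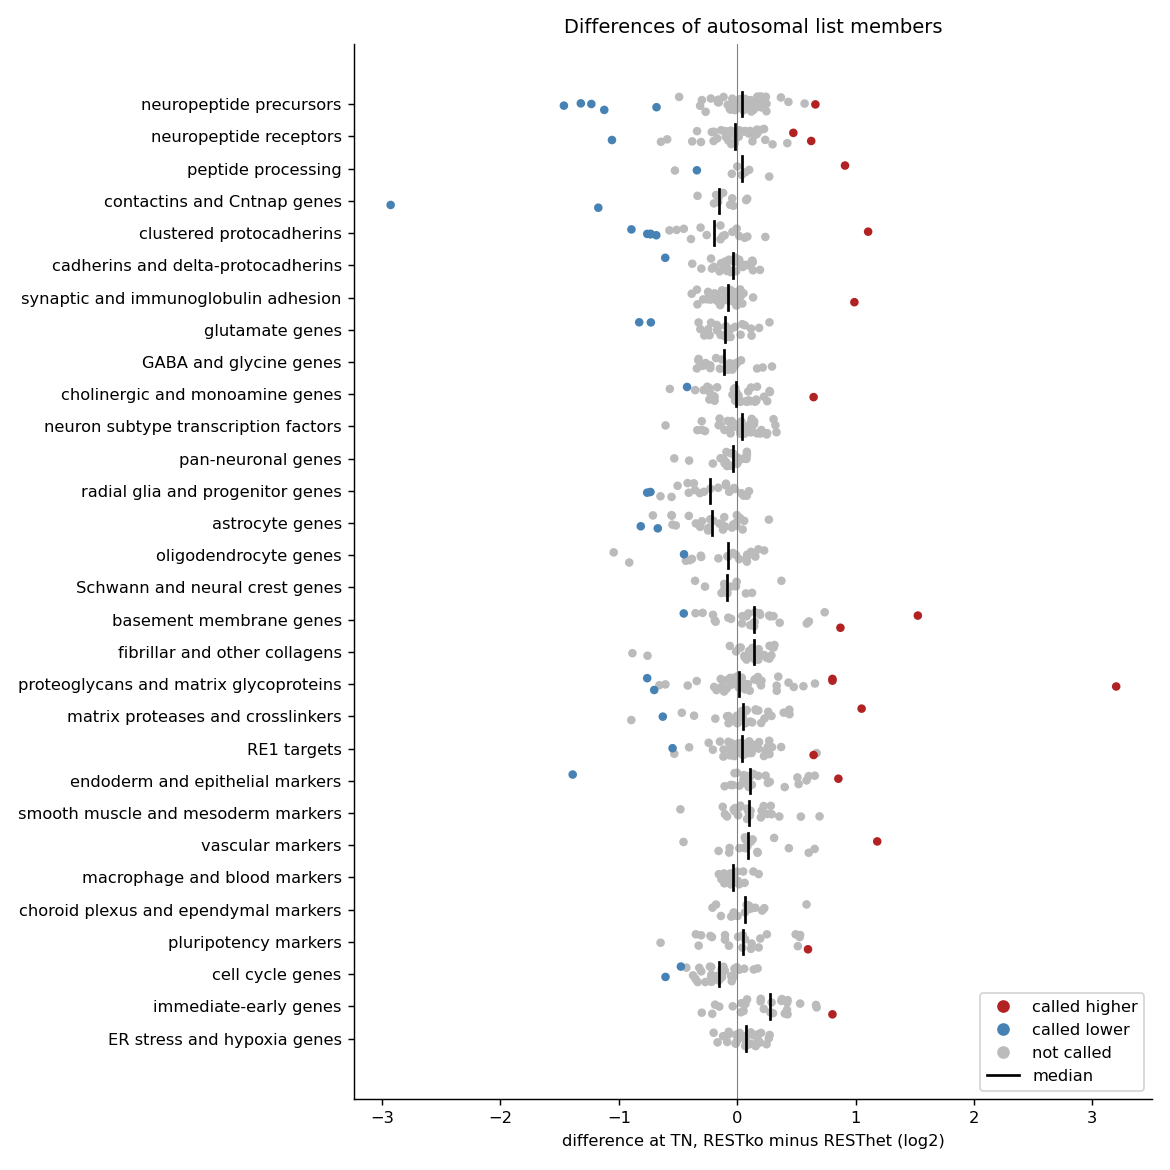
Log2 differences at TN, RESTko minus RESThet (x axis), of the autosomal members of 30 gene lists (y axis). Each point is a gene, red called higher, blue called lower and grey not called, and the black bar is the median of the list. The medians lie between -0.23 for radial glia and progenitor genes and 0.28 for immediate-early genes, against -0.02 for all autosomal genes, and single genes such as Srgn and Cntnap5a stand far outside their lists.

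Further genes with large differences lay outside these groups. Among the lower ones, Vwc2l, a secreted protein with a von Willebrand factor type C domain, was at 4.69, 4.43 and 4.58 in RESTko arrays and 6.11, 6.39 and 6.62 in RESThet arrays (-1.81, SE 0.12, 3.50-fold lower, adjusted p = 1.00e-07). Tmem179, a membrane protein, was at 5.42, 5.44 and 5.26 in RESTko arrays and 6.79, 7.02 and 7.07 in RESThet arrays (-1.58, SE 0.13, adjusted p = 1.25e-06). The gap between the groups was 1.42 for Vwc2l and 1.34 for Tmem179. Ccl28, a chemokine of epithelia, was at 4.05, 3.93 and 3.78 in RESTko arrays, which is dim, and 5.41, 5.41 and 5.01 in RESThet arrays (-1.35, adjusted p = 6.98e-06). H13, the signal peptide peptidase, was at 7.75, 7.73 and 7.65 in RESTko arrays and 8.76, 8.73 and 8.87 in RESThet arrays (-1.08, SE 0.08, adjusted p = 1.93e-07), with a gap of 0.99 between the groups.

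Nrn1, the neurite growth protein neuritin, was at 8.36, 8.58 and 7.87 in RESTko arrays and 8.76, 9.58 and 9.60 in RESThet arrays (-1.04, adjusted p = 0.0207). Mfsd2a, a carrier of lipids with omega-3 fatty acids, was at 5.70, 5.50 and 5.77 in RESTko arrays and 6.30, 6.24 and 7.31 in RESThet arrays (-0.96, adjusted p = 0.0177), and the difference was -0.61 without RESThet array c. Ctxn2, a cortexin of neuronal membranes (-0.99, adjusted p = 0.000909), and Abhd14a, a protein with a hydrolase domain (-0.91, adjusted p = 3.11e-06), complete the 15 lower genes named by size. The RESTko mean of Ctxn2, 3.77, was dim. The call of Nrn1 ended without RESTko array a or c or RESThet array b or c (up to 0.117) and that of Mfsd2a without RESTko array a or b (up to 0.0679). The other ones named here held on leaving out any 1 array, and in the TN arrays alone Ctxn2 was at an adjusted p of 0.0501.

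Among the higher ones, Aqp8, a water channel, was at 6.00, 7.61 and 5.99 in RESTko arrays and 4.97, 4.30 and 4.36 in RESThet arrays (1.99, SE 0.34, 3.98-fold higher, adjusted p = 0.00479), with 1.46 left without RESTko array b. Sprr1a, a protein of the cornified envelope that injured neurons also make, was at 5.48, 6.24 and 5.51 in RESTko arrays and 4.76, 4.73 and 4.55 in RESThet arrays (1.07, adjusted p = 0.00345). F3, tissue factor of the clotting cascade, was at 5.54, 6.46 and 5.81 in RESTko arrays and 4.82, 4.77 and 5.31 in RESThet arrays (0.97, adjusted p = 0.0311). RESTko array b was the highest of its group in 10 of the 15 higher genes named by size, these 3 included.

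Rps3a1, a protein of the small ribosomal subunit, was at 9.48, 9.68 and 9.72 in RESTko arrays and 8.29, 8.33 and 8.16 in RESThet arrays (1.36, SE 0.09, adjusted p = 6.85e-08). It was lower at NP (-0.52, adjusted p = 0.000988), so the direction turned between the stages. Ribosomal protein genes have many near-identical copies in the genome, so the source of this signal is uncertain. Mzt1, a part of the gamma-tubulin ring, was at 9.82, 9.88 and 9.65 in RESTko arrays and 9.01, 8.96 and 8.86 in RESThet arrays (0.84, adjusted p = 3.15e-06), and a second probe set gave 0.60. Rabl2, a small GTPase of cilia (0.93, adjusted p = 0.000196), and Slco2a1, a prostaglandin carrier (0.86, adjusted p = 0.00359), were higher too. The RESThet mean of Slco2a1, 4.18, was dim. Of the 7 genes in these paragraphs on increases, F3 lost its call without RESTko array b or c or RESThet array a or b (up to 0.109), and the others kept theirs. In the TN arrays alone Aqp8 and Sprr1a were not called (adjusted p = 0.131 and 0.0953).

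The differences at TN were set against those at NP, the stage before, by testing the effect of genotype at TN minus that at NP. The control also differs between the stages, RESThet at TN and RESTwt at NP, so stage and control cannot be told apart here. Over all autosomal genes 761 had a called difference of effects (3.97%), and 1558 were called at NP itself (8.13%) and 1722 at ES (8.98%). Of the 222 genes called at TN 118 had a called difference of effects, a count that rests on the same TN arrays as their choice and is a description. Of the 222, 156 were called neither at NP nor at ES. Nms and Oprk1 had a called difference of effects (-1.40, adjusted p = 0.00167, and -1.08, adjusted p = 0.00158), but at NP both were dim in both genotypes, with means of 3.55 in RESTko and 3.47 in RESTwt cells for Nms and of 2.99 and 2.96 for Oprk1. Their difference of effects therefore restates the one at TN. For Sst (-0.43 at NP; -0.81, adjusted p = 0.21), Trh (-0.51 at NP; -0.95, adjusted p = 0.0864), Slc17a6 (-0.70, adjusted p = 0.139) and Gja1 (-0.56, adjusted p = 0.285) the difference of effects was not called.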

How the data were processed

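Labelled RNA of cells at 3 stages was hybridised to Affymetrix whole-transcript arrays, and the authors deposited their signals per probe set on a log2 scale. The submitters' processing notes name oligo 1.14.0, while normalization and any further step were not given in the sources used here. No further normalization was applied. Of 35556 probe sets, 21789 carried 1 gene symbol, 1621 several and 12146 none, symbols being updated to GRCm38.p6. A gene was represented by its probe set with the highest mean, which gave 19938 genes, 19166 of them autosomal. With no read depth, it is the number of arrays that limits the precision. The 6 arrays of the other platform were not used here.

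A mean for each of 6 groups was fitted to 18 arrays with lmFit and eBayes of limma 3.58.1, run in R 4.3.3 (two-sided, Benjamini-Hochberg over all genes, called under 0.05). In data simulated for RESTko minus RESThet at TN over 19938 genes, 68.7% of changes of 0.5, 98.5% of changes of 1 and 100% of changes of 2 (log2) were called, with 13 unchanged genes called. The simulated noise was independent between arrays, with 1 SD for each gene pooled over the 6 groups. These rates therefore do not describe genes whose TN arrays spread more than those of the earlier stages. Named genes were Rest, the 15 called autosomal genes with the largest difference in each direction whose arrays do not overlap (predicted genes, olfactory receptors and small RNAs left out), and up to 4 called members, or 2 not called, of each of 30 gene lists. Members and lists were chosen with earlier results of these data known. The replicate letter was not used as a block: deviations of same-lettered arrays correlated at -0.14 for a, 0.04 for b and 0.08 for c. Whether these arrays were paired is not stated in the labels, and the correlations do not settle it.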

Additional observations from a re-analysis of the deposited data

Results flagged for a closer look

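Of 85 named genes, 34 had an effect of genotype at TN that differed from the one at NP (limma, the test of the difference itself, adjusted p under 0.05), 11 of them more positive and 23 more negative at TN. Over all autosomal genes the share was 3.97%. Most of these genes were named for a called or large difference at TN, which enters the tested value, so the count is a description. At NP 15 of the 34 were dim in both genotypes, among them Cntnap5a, Nms, Oprk1, Calb1 and Tnr, and their values mostly restate the difference at TN. Values are log2, the difference RESTko minus RESThet at TN minus the difference RESTko minus RESTwt at NP, so the control genotype changes along with the stage and the contribution of each cannot be told apart.

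Among adhesion and matrix genes the values were more negative at TN for Cntnap5a (-2.93), Cntnap5c (-1.22), Tnr (-1.12), Smoc1 (-0.80) and Pcdhb8 (-0.65), and more positive for Pcdhb9 (1.32), Ogn (0.97), P4ha2 (0.99) and Ccn1 (0.87). Genes of peptide signalling were more negative at TN for Nms (-1.40), Oprk1 (-1.08) and Pcsk1 (-1.04), of which Pcsk1 was higher in RESTko cells at both stages, and more positive for Nts (0.63), Nmur2 (0.84) and Trhr (0.53). Neuronal genes that were higher in RESTko progenitors than in RESTwt progenitors and not so at TN were Nefh (-1.58), Stmn2 (-1.04) and Calb1 (-0.97). The AMPA receptor subunit gene Cacng3 (-0.90) was more negative at TN too. Further genes with a more negative effect at TN were 4833420G17Rik (-2.13), Apoa2 (-1.56), Vwc2l (-1.47), Tmem179 (-1.44), Mfsd2a (-1.39), Ccl28 (-1.32), H13 (-1.11), Ctxn2 (-1.10), Tmem267 (-1.09), Abhd14a (-0.82) and Nnt (-0.64). Those with a more positive effect were Klf5 (0.73), Rabl2 (0.73), Rps3a1 (1.88) and Sprr1a (2.25). Sprr1a and Rps3a1 were lower in RESTko than in RESTwt cells at NP and higher in RESTko than in RESThet cells at TN.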

How the results depend on the processing

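The count of genes called at TN, 71 higher and 160 lower, and the 780 genes whose effect differed between TN and NP, moved with the settings. In a fit of the compared stages alone the counts were 16 higher, 34 lower and 436, an alternative that has fewer arrays and its own estimate of the spread. At an adjusted p under 0.01 they were 28, 59 and 274. With every probe set tested on its own they were 127, 223 and 663, over 35556 probe sets, and the cause was not tested. Leaving out each TN array in turn gave 40 to 63 higher, 77 to 147 lower and 503 to 673 with a difference of effects. With the replicate block in all 18 arrays the counts were 88, 160 and 951, sharing 172 genes with the 231, and with the replicate block in the compared stages alone 9, 18 and 586. The labels do not say whether same-lettered arrays were paired, so these counts describe the setting only. With the block in all 18 arrays 4 immediate-early genes were called higher, against 1 without it. Quantile normalization gave 81 and 141, array weights 63 and 135, and centring each chromosome 101 and 108, with 168 of the 231 genes shared.

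No called named gene changed sign in any setting run, and of 18 that were not called Klf1 did (0.03 without RESThet array a). Of 67 called named genes, 38 kept their call on leaving out any TN array, 28 in the TN arrays alone, 59 with the block in 18 arrays, 21 with the block in the TN arrays alone, and 41 at 0.01. On leaving out 1 TN array the medians of 26 of the 30 lists moved by over 1.5 times, and those of 8, none beyond 0.066 from 0 with every array, changed sign. With every array 21 lists held called genes, and in the TN arrays alone 8 did. The median SE of 0.10 limits what 3 arrays a group can call, and a signal at the dim level, which was set by rank and not by a background measurement, limits what a difference can show.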

Other observations

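Some called genes were neighbours in the gene order of GRCm38.p6. On chromosome 13 the genes Nnt, 4833420G17Rik, Tmem267 and Ccl28 lay close together and were all lower in RESTko neurons, at -0.71, -1.94, -0.90 and -1.35. Nnt makes NADPH in mitochondria, and no role is given here for 4833420G17Rik and Tmem267. The signal of 4833420G17Rik was 6.10, 6.63 and 6.44 in RESTko arrays and 8.48, 8.27 and 8.23 in RESThet arrays, and that of Tmem267 was 8.55, 8.48 and 8.32 in RESTko arrays and 9.26, 9.32 and 9.46 in RESThet arrays. At NP the 4 genes were at -0.07, 0.19, 0.20 and -0.03 against RESTwt. All 4 were called on leaving out any 1 TN array.

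On chromosome 14 the neighbours Dach1, Mzt1, Pibf1 and Klf5 were all higher, at 0.51, 0.84, 0.43 and 0.60. Dach1, a transcription factor of the developing eye and limb, lost its call without RESTko array a or c or RESThet array b or c (adjusted p up to 0.152), and Pibf1, a centrosome protein, without RESTko array c or RESThet array c (up to 0.0603). Klf5 lost it as given above. At NP the first 3 of these were higher than in RESTwt as well (0.61, 0.72 and 0.61), and Klf5 was at -0.13. Zinc finger genes in a row on chromosome 13 went in both directions, Zfp58 at 0.50, Zfp87 at -0.60 and Zfp748 at -0.57. On chromosome 9 Fbxw26 was at -0.46, 3000002C10Rik at -0.79 and Nme6 at -0.87. Apart from Mzt1, Ccl28 and Klf5, these genes were named after their values were seen. The share of genes called was 2.45% on chromosome 13, 2.13% on chromosome 1, 2.12% on chromosome 18 and 0.295% on chromosome 19, the lowest of the autosomes, against 1.16% over all autosomes. Whether neighbouring genes share a cause was not tested.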
